A study of Mus musculus with 8 samples.

Results

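The genes that encode collagen chains were examined in brown adipose tissue (BAT) of mice lacking adipose triglyceride lipase (ATGL, encoded by Pnpla2) in their thermogenic adipocytes. Members were chosen by name alone, as every gene of the count table whose mouse symbol is Col, a number, the letter a and a number. This rule found 44 of 31053 genes, and they were grouped into 11 fibrillar, 6 basement membrane, 6 beaded filament, 9 FACIT (fibril-associated with interrupted triple helices) and 12 other chains. Of the 44 genes, 37 had at least 1 read and 17 had enough counts to be tested, out of 8930 genes tested in all.

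RNA was sequenced in bulk from BAT of 4 WT and 4 Ucp1Δ/Δ mice (the latter labelled ATGLKO), all C57BL6/J and 10 weeks old per the labels, although the study's figure legends give a younger age. In Ucp1Δ/Δ mice floxed Pnpla2 alleles are removed by a Cre recombinase under the Ucp1 promoter, so cells of BAT that do not express Ucp1 keep the gene. Whether WT mice carried the floxed alleles or the Cre transgene was not given in the sources used here, and every comparison was between these genotypes. Replicates are separate samples of a genotype, and the mice of both genotypes are called by the numbers of their labels (WT 1 to 4 and Ucp1Δ/Δ 1 to 4).

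Collagens are secreted proteins of the extracellular matrix whose chains wind into a triple helix. Fibrillar collagens form the fibers that give a tissue tensile strength, type IV collagens form the sheet-like network of basement membranes, which surround adipocytes and lie under endothelial cells, and type VI collagen forms beaded filaments between both. In adipose tissue, most fibrillar collagen is produced by fibroblast-like stromal cells, while adipocytes, endothelial cells and mural cells contribute to the basement membrane. A chain is folded and hydroxylated in the endoplasmic reticulum, trimmed by procollagen proteinases after secretion and crosslinked by lysyl oxidases.

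Sequence around the start is shown for fibrillar and basement membrane chains that the results below turn on, because chains of one group rose together. Windows from 250 bases before to 50 bases after the start of a gene were taken from RefSeq (GRCm38.p6) and were found for 13 of the 17 tested genes. In the first pair of sequences below, which end at or before the RefSeq start, capitals mark matches on either strand to TATAAA (the TATA box), GGGCGG (a GC box) or CAGACA (a SMAD-binding element, whose other strand reads TGTCTG). The Col3a1 stretch is chr1:45311388-45311537 on the plus strand, bases -150 to -1 from the start, and Col1a2 is chr6:4505370-4505492 on the plus strand, which ends where the first exon of the full-length GENCODE transcript begins and lies in an intron of a shorter one.
Col3a1: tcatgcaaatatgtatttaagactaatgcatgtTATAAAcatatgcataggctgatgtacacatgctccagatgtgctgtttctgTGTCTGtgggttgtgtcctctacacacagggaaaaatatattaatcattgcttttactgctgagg
Col1a2: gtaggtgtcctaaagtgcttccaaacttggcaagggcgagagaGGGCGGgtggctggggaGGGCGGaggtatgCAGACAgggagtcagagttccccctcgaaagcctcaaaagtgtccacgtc
Col4a1 and Col4a2 lie head to head, and the 22 bases where their first exons overlap on opposite strands are chr8:11312805-11312826, written on the plus strand, that of Col4a2, with the GC box in capitals.
Col4a1 and Col4a2 first exons: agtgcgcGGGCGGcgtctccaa
These matches describe the letters and do not show that a factor bound there. The 13 genes had 15 windows. CAGACA was found in 5 of these windows (Col1a2, Col3a1, Col5a1, Col8a1 and Col18a1) and in 21.0% of all 32851 windows of this length. TATAAA was in 1 window (Col3a1) against 13.6%, GGGCGG in 10 windows of 9 genes against 35.7%, and CCAAT in 5 windows against 37.4%.

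The libraries held 2017697 to 3115956 counts in WT and 2240612 to 2941799 in Ucp1Δ/Δ mice, so that 3 counts corresponded to 0.933 to 1.53 counts per 1000000 (CPM). CPM are scaled by TMM, except for the minimum of the filter on low counts, which uses total counts. Mitochondrially encoded genes took 38.4 to 45.6% of the counts in WT (highest in WT 4) and 39.1 to 42.6% in Ucp1Δ/Δ mice. Pnpla2 itself (ENSMUSG00000025509) was at 2913 ± 191 CPM in WT and 474 ± 59.2 CPM in Ucp1Δ/Δ mice (mean ± SD, n = 4 each, log2 fold change -2.62, SE 0.17, edgeR adjusted p = 1.97e-07). Although the labels name both BAT and the stromal vascular fraction, all 8 brown adipocyte markers passed the filter, and Ucp1 had a mean of 2719 CPM in WT mice. Skeletal muscle markers varied between mice of both genotypes, summing to 1054, 73.5, 13.4 and 516 CPM in WT 1 to 4 and to 180.1, 1336, 41.0 and 639 CPM in Ucp1Δ/Δ 1 to 4. Counts below were therefore also taken without the 4 mice highest in these markers.

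Collagen chain transcripts were more abundant in BAT of Ucp1Δ/Δ mice. Among the 17 tested chains 15 were higher in Ucp1Δ/Δ mice, none was lower and 2 received no call (edgeR quasi-likelihood test, Benjamini-Hochberg adjusted p under 0.05 over all genes), where 13.3% of all genes tested were higher and 7.63% lower. The median log2 fold change of the 17 chains was 1.90, with a range from 0.70 to 2.74, beside -0.0087 for all genes tested. In 14 of the 17, every Ucp1Δ/Δ mouse lay above every WT mouse, which held for 14.4% of all genes tested, and in none did every Ucp1Δ/Δ mouse lie below every WT mouse, which held for 9.37%. Of the 17 chains, 6 (Col5a1, Col8a1, Col12a1, Col14a1, Col15a1 and Col18a1) did not reach the minimum of 4.22 CPM in every WT mouse and so depended on Ucp1Δ/Δ mice to be tested. This minimum applies to CPM by total counts, before TMM scaling, and on that scale Col5a1 reached it in 3 of 4 WT mice. The 11 chains that reached it in all WT mice were all higher. Without the 4 mice highest in muscle markers, which leaves 2 mice per genotype, 12 of 18 tested chains were higher. In that fit 760 of all 9295 genes tested were higher and 265 were lower. Col6a1, Col12a1 and Col18a1 were no longer called, with log2 fold changes of 1.18, 1.76 and 1.59 in place of 1.80, 1.70 and 1.74.

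**Figure D1:**
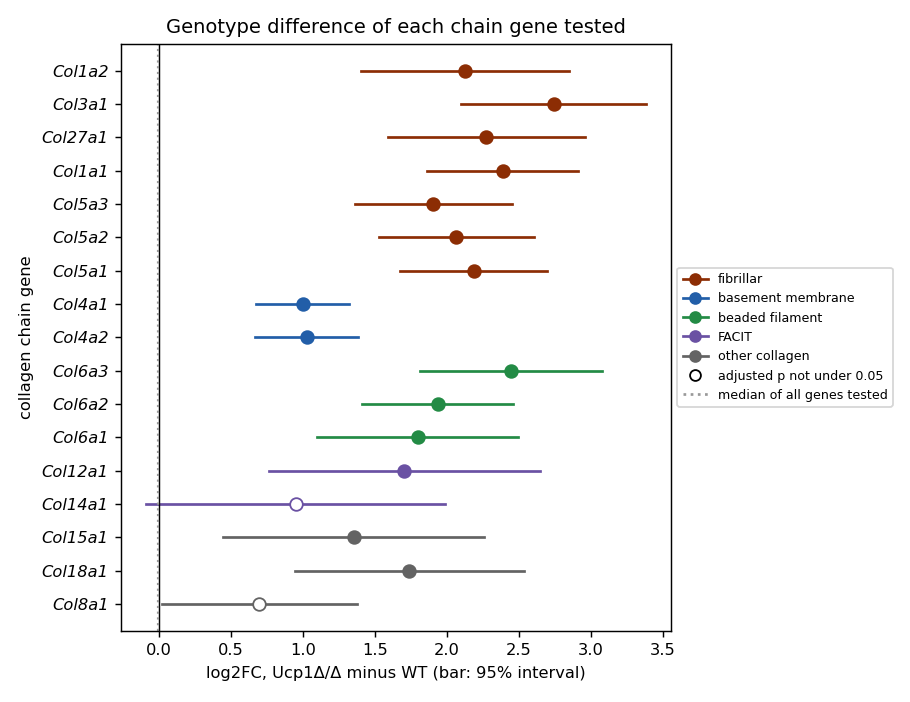
Log2 fold change (Ucp1Δ/Δ over WT) of each tested collagen chain with its 95% interval, colored by structural group, with open circles for chains that were not called and a dotted line at the median of all genes tested. All 17 estimates lie above 0, from 0.70 for Col8a1 to 2.74 for Col3a1, and the type IV chains sit near 1.

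The sum over all 44 chains was 493, 548, 466 and 692 CPM in WT mice and 1571, 2625, 1611 and 1930 CPM in Ucp1Δ/Δ mice. Every Ucp1Δ/Δ mouse was thus above the highest WT mouse, WT 4, and the ratio of the means was 3.52. Ucp1Δ/Δ 2 was the highest mouse for 10 of the 17 tested chains, and the same mouse had the highest sums of skeletal muscle, fibroblast and macrophage markers. In bulk tissue, a larger number of collagen-producing cells and more collagen RNA per cell cannot be told apart.

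All 7 tested fibrillar chains were higher in Ucp1Δ/Δ mice, in each of them the genotypes did not overlap, and their median log2 fold change was 2.19 (range 1.90 to 2.74). Their summed level was 208, 218, 179 and 396 CPM in WT and 952, 1841, 977 and 1243 CPM in Ucp1Δ/Δ mice, a ratio of means of 5.01. In 6 of the 7 chains the highest mouse was Ucp1Δ/Δ 2.

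**Figure D2:**
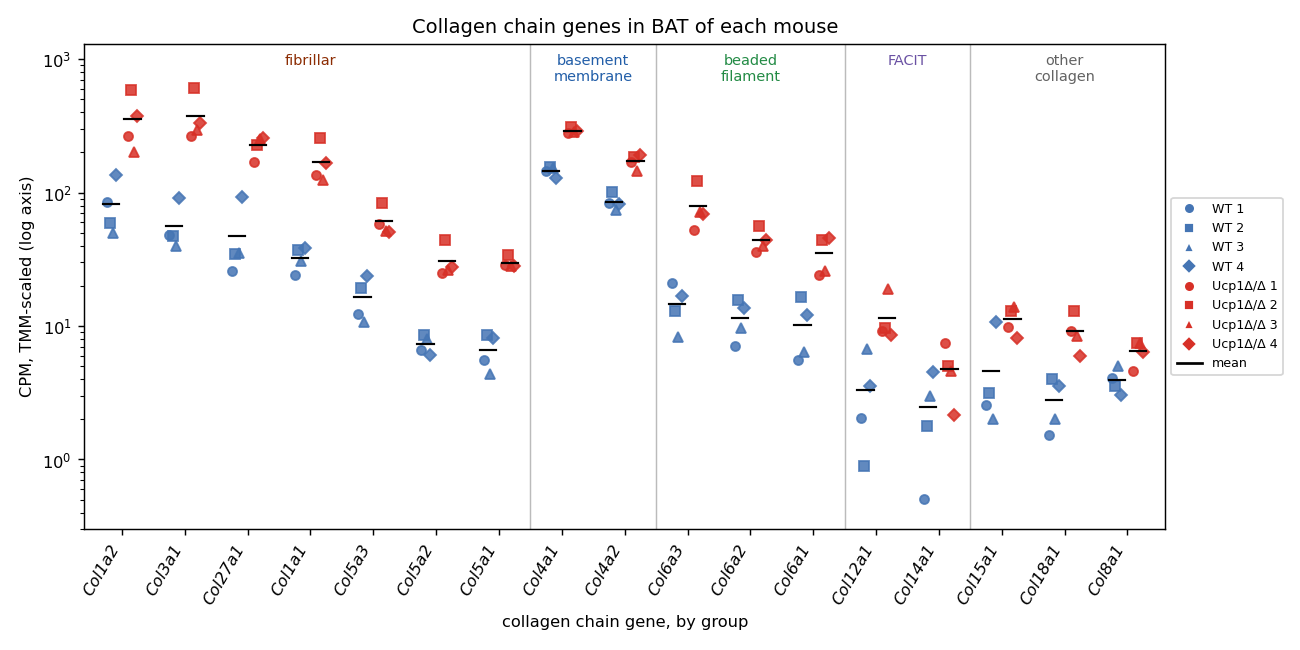
Level of the tested collagen chains in each mouse (CPM, log axis), with WT and Ucp1Δ/Δ mice in different colors and a bar at the genotype mean. In 14 of 17 chains every Ucp1Δ/Δ point is above every WT point, and Col14a1, Col15a1 and Col8a1 overlap.

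Col3a1, the chain of type III collagen, which is found with type I in pliable tissues, lies on chromosome 1 of mm10 from 45311538 to 45349706 (ENSMUSG00000026043). Its level was 47.9, 47.0, 40.1 and 90.7 CPM in WT 1 to 4 and 267, 608, 293 and 334 CPM in Ucp1Δ/Δ 1 to 4. The lowest Ucp1Δ/Δ mouse thus exceeded the highest WT mouse by a wide margin. It was 6.69-fold higher (95% interval 4.29 to 10.4, log2 fold change 2.74, SE 0.30, adjusted p = 1.19e-05). Type I collagen, the main component of thick fibers, is built from the products of Col1a1 (ENSMUSG00000001506, chromosome 11, 94936224 to 94953042) and Col1a2 (ENSMUSG00000029661, chromosome 6, 4504814 to 4541544). Col1a1 was at 24.0, 37.2, 30.7 and 38.5 CPM in WT and at 135, 256, 124 and 166 CPM in Ucp1Δ/Δ mice. This was a 5.22-fold difference (3.64 to 7.51, log2 fold change 2.39, SE 0.25, adjusted p = 6.53e-06) between groups that did not overlap. Col1a2 spread more widely among mice of one genotype. Its level was 85.7, 59.6, 49.4 and 135 CPM in WT mice against 267, 587, 200.2 and 376 CPM in Ucp1Δ/Δ mice. Ucp1Δ/Δ 3, the lowest of its genotype, was still above WT 4, the highest of WT, and the fold change was 4.36 (2.65 to 7.19, log2 2.13, SE 0.34, adjusted p = 0.00033).

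The type V chains, which start the assembly of type I fibrils and limit their diameter, were all higher. Col5a1 (ENSMUSG00000026837, chromosome 2, 27886425 to 28039514) was at 5.61, 8.51, 4.34 and 8.11 CPM in WT and 28.7, 33.9, 28.4 and 28.3 CPM in Ucp1Δ/Δ mice, with a log2 fold change of 2.19 (SE 0.24, adjusted p = 1.19e-05). Col5a2 (ENSMUSG00000026042, chromosome 1, 45374321 to 45503282), the next gene to Col3a1 among the collagens of that chromosome, was at 6.63, 8.51, 8.01 and 6.08 CPM against 25.1, 44.5, 26.3 and 27.5 CPM (log2 fold change 2.07, SE 0.25, adjusted p = 3.1e-05). In both, 3 of the Ucp1Δ/Δ mice were close to each other and Ucp1Δ/Δ 2 was above them. Col5a3 (ENSMUSG00000004098, chromosome 9, 20770050 to 20815067) rose from 12.2, 19.3, 10.7 and 23.8 CPM to 58.4, 83.1, 51.4 and 51.1 CPM, a log2 fold change of 1.90 (SE 0.26, adjusted p = 7.31e-05). Exons of Col5a1 overlap those of a pair of noncoding genes on the other strand, and the strand setting of the counting was not given in the sources used here.

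Col27a1 (ENSMUSG00000045672, chromosome 4, 63214004 to 63334991), a fibrillar chain best known from cartilage, was at 26.0, 34.9, 35.1 and 93.2 CPM in WT mice. In Ucp1Δ/Δ mice it reached 171, 228, 254 and 259 CPM. WT 4 stood above the other WT mice but below every Ucp1Δ/Δ mouse, and the fold change was 4.83 (3.01 to 7.75, log2 2.27, SE 0.32, adjusted p = 0.000112). The remaining fibrillar chains were scarce. Col2a1 and Col24a1 had no count in any mouse, which at the depth of single libraries allows up to 1.53 CPM, Col11a1 had 2 counts summed over WT and 3 over Ucp1Δ/Δ mice, and Col11a2 had 8 and 1.

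Col4a1 and Col4a2, whose products form the common type IV network of nearly all basement membranes, were both higher, and their summed group level was 230.0, 263, 232 and 214 CPM in WT and 457, 496, 431 and 488 CPM in Ucp1Δ/Δ mice (ratio of means 1.99). This ratio was below that of the fibrillar chains, but the difference between the groups was not tested. Among the ratios of single chains below, only Col4a1 to Col1a1 sets a basement membrane chain against a fibrillar one. Col4a1 (ENSMUSG00000031502, chromosome 8, 11198423 to 11312826) was at 144, 155, 154 and 128 CPM in WT 1 to 4. In Ucp1Δ/Δ 1 to 4 it was at 279.9, 309, 283 and 289 CPM, so that the mice of each genotype were close together and far from the other genotype. It was 2.0-fold higher (1.59 to 2.5, log2 fold change 1.0, SE 0.15, adjusted p = 0.000232). Col4a2 (ENSMUSG00000031503, chromosome 8, 11312805 to 11449287) was at 83.1, 100.4, 74.5 and 81.6 CPM against 169.8, 184, 145 and 191 CPM (log2 fold change 1.02, SE 0.17, adjusted p = 0.000413). The 22 shared bases printed above are a small part of either gene, and Col4a2 shares a further 43 exonic bases with an antisense gene. The chains of specialised basement membranes were not tested: Col4a3 had 5 counts in WT and 3 in Ucp1Δ/Δ mice, Col4a4 37 and 47, Col4a5 0 and 6, and Col4a6 none.

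All 3 tested type VI chains were higher without overlap between the genotypes. Together the beaded filament chains were at 35.2, 48.4, 25.7 and 45.1 CPM in WT and at 113, 226, 139.6 and 159 CPM in Ucp1Δ/Δ mice, a ratio of means of 4.12. Col6a3 (ENSMUSG00000048126, chromosome 1, 90765923 to 90843971), the long chain whose cleaved end is known as endotrophin, was at 20.9, 13, 8.35 and 16.7 CPM in WT against 52.4, 122, 71.9 and 68.7 CPM in Ucp1Δ/Δ mice. The fold change was 5.45 (log2 2.45, SE 0.30, adjusted p = 2.9e-05). Col6a1 and Col6a2, its partners in the type VI trimer, are neighbors on chromosome 10 (ENSMUSG00000001119, 76708792 to 76726168, and ENSMUSG00000020241, 76595762 to 76623630). Col6a2 was at 7.14, 15.7, 9.68 and 13.7 CPM against 36.1, 56.3, 40.1 and 43.8 CPM (log2 fold change 1.93, SE 0.25, adjusted p = 4.49e-05). Col6a1 was at 5.61, 16.6, 6.34 and 12.2 CPM against 24.1, 44.5, 25.9 and 45.9 CPM (log2 fold change 1.80, SE 0.33, adjusted p = 0.000952). Of these, Col6a1 is the one whose call was lost without the 4 mice highest in muscle markers (log2 fold change 1.18, adjusted p = 0.0814). The remaining chains of this group, Col6a4, Col6a5 and Col6a6, had no counts, 0 and 2, and 19 and 12 counts summed over WT and Ucp1Δ/Δ mice.

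FACIT and other chains were at low levels, and only some were higher. Col12a1 (ENSMUSG00000032332, chromosome 9, 79598991 to 79718831), which sits on the surface of type I fibrils, was at 2.04, 0.896, 6.68 and 3.55 CPM in WT and 9.20, 9.65, 18.8 and 8.58 CPM in Ucp1Δ/Δ mice. The mice did not overlap and the log2 fold change was 1.70 (SE 0.44, adjusted p = 0.0116), and without the 4 mice highest in muscle markers it was 1.76 with an adjusted p of 0.0862. Col14a1 (ENSMUSG00000022371, chromosome 15, 55307750 to 55520803), the chain of a related fibril-surface collagen, overlapped between genotypes, with 0.510, 1.79, 3.01 and 4.56 CPM against 7.43, 4.98, 4.60 and 2.15 CPM. Its log2 fold change of 0.95 (95% interval -0.09 to 1.99) was not called (adjusted p = 0.193).

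Col15a1 and Col18a1 encode the core proteins of collagens XV and XVIII, proteoglycans of basement membrane zones, the second of which is the source of endostatin. Col18a1 (ENSMUSG00000001435, chromosome 10, 77052178 to 77166548) was at 1.53, 4.03, 2.0 and 3.55 CPM in WT and 9.20, 13.1, 8.36 and 6.01 CPM in Ucp1Δ/Δ mice (log2 fold change 1.74, SE 0.37, adjusted p = 0.00343). The groups did not overlap, and without the 4 mice highest in muscle markers the log2 fold change was 1.59 with an adjusted p of 0.0594. Col15a1 (ENSMUSG00000028339, chromosome 4, 47208161 to 47313167) was at 2.55, 3.14, 2.0 and 10.6 CPM in WT and 9.91, 13.1, 13.8 and 8.16 CPM in Ucp1Δ/Δ mice, so that WT 4 lay within the range of the other genotype. Its call (log2 fold change 1.35, SE 0.43, adjusted p = 0.0341) was lost when any of WT 1, WT 2, WT 3, Ucp1Δ/Δ 1, Ucp1Δ/Δ 2 or Ucp1Δ/Δ 3 was left out, with adjusted p from 0.0546 to 0.117. Without WT 4 the log2 fold change was larger, 2.13 (adjusted p = 0.000619), and without the 4 mice highest in muscle markers it was 2.22 (adjusted p = 0.0111). Col8a1 (ENSMUSG00000068196, chromosome 16, 57624258 to 57754737), a short chain of vessel walls, was at 4.08, 3.58, 5.01 and 3.04 CPM against 4.60, 7.47, 7.52 and 6.44 CPM. Its log2 fold change of 0.70 (SE 0.32) was not called (adjusted p = 0.141).

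The 27 untested chains carried few reads. No count was found for 7 (Col2a1, Col24a1, Col4a6, Col6a4, Col9a1, Col17a1 and Col22a1). Apart from those given above, the largest were Col16a1, a FACIT chain, with 16 counts summed over WT and 37 over Ucp1Δ/Δ mice, Col20a1 with 19 and 20, Col13a1, a transmembrane collagen, with 17 and 15, and Col23a1 with 15 and 16. Col7a1, which anchors the basement membrane of skin, had 6 and 5, and Col28a1 had 9 and 8. Col9a2, Col9a3, Col10a1 (the collagen of hypertrophic cartilage), Col8a2, Col19a1, Col25a1 and Col26a1 had at most 4 counts in either genotype. When every gene with at least 1 count was tested, the 20 of these chains that had any count were neither higher nor lower (lowest edgeR adjusted p = 0.128), and of the 7 that DESeq2 tested none was called (lowest adjusted p = 0.525). A difference in these chains was thus not detectable at this depth.

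The shares of the structural groups in collagen transcripts are given as a description. Fibrillar chains were 42.2, 39.7, 38.5 and 57.2% of the summed collagen level in WT 1 to 4 and 60.6, 70.1, 60.6 and 64.4% in Ucp1Δ/Δ 1 to 4. Basement membrane chains were 46.7, 48.1, 49.8 and 30.9% against 29.1, 18.9, 26.8 and 25.3%. Neither share overlapped between genotypes, although WT 4 was closer to the Ucp1Δ/Δ mice than to the other WT mice in both. Beaded filament chains were 7.0 ± 1.39% in WT and 8.16 ± 0.693% in Ucp1Δ/Δ mice, FACIT chains 1.77 ± 0.671% and 1.2 ± 0.446%, and the other chains 2.96 ± 0.701% and 1.68 ± 0.389% (mean ± SD, n = 4).

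**Figure D3:**
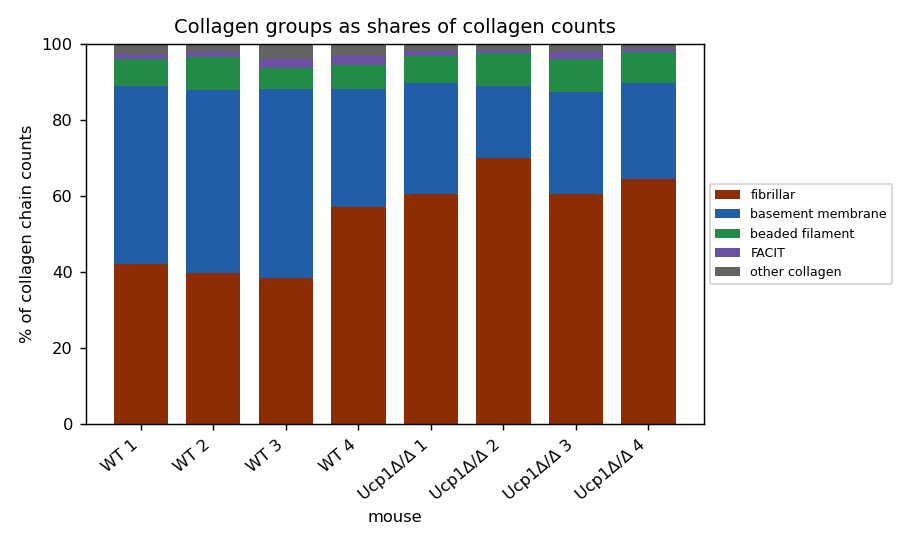
Share of the summed collagen level (percent) taken by each structural group, 1 bar per mouse. The fibrillar share is 38.5 to 57.2% in WT and 60.6 to 70.1% in Ucp1Δ/Δ mice, and the basement membrane share is lower in every Ucp1Δ/Δ mouse.

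Whether a pair of chains changed unequally was asked with the log2 ratio of their counts within each mouse, which does not depend on library scaling. Of 8 ratios tested with a 2-sided exact permutation test, 1 did not overlap between genotypes. The log2 ratio of Col4a1 to Col1a1 was 2.58, 2.06, 2.32 and 1.73 in WT and 1.05, 0.27, 1.19 and 0.80 in Ucp1Δ/Δ mice. This difference of -1.34 gave p = 0.0286, the smallest that 4 against 4 mice allow in this exact permutation test, and 0.229 after adjustment over the 8 ratios. Within one trimer, ratios overlapped between the genotypes. Col4a1 to Col4a2 had a mean log2 ratio of 0.78 ± 0.19 in WT and 0.76 ± 0.15 in Ucp1Δ/Δ mice (difference -0.023, exact permutation p = 0.83). Col6a1 to Col6a2 differed by -0.11 (exact p = 0.543), Col6a3 to Col6a1 by 0.57 (exact p = 0.314) and Col5a1 to Col5a2 by 0.16 (exact p = 0.629). Between the type I chains, the log2 ratio of Col1a1 to Col1a2 was -1.83, -0.68, -0.68 and -1.80 in WT and -0.98, -1.2, -0.69 and -1.18 in Ucp1Δ/Δ mice (exact permutation p = 0.486). The ratio was lowest in WT 1 and WT 4, which were also the WT mice highest in skeletal muscle markers. Across collagen types, Col3a1 to Col1a1 differed by 0.38 (exact p = 0.143) and Col15a1 to Col18a1 by -0.15 (exact p = 0.83). With this number of mice a p that misses the threshold does not show that a ratio was the same.

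**Figure D4:**
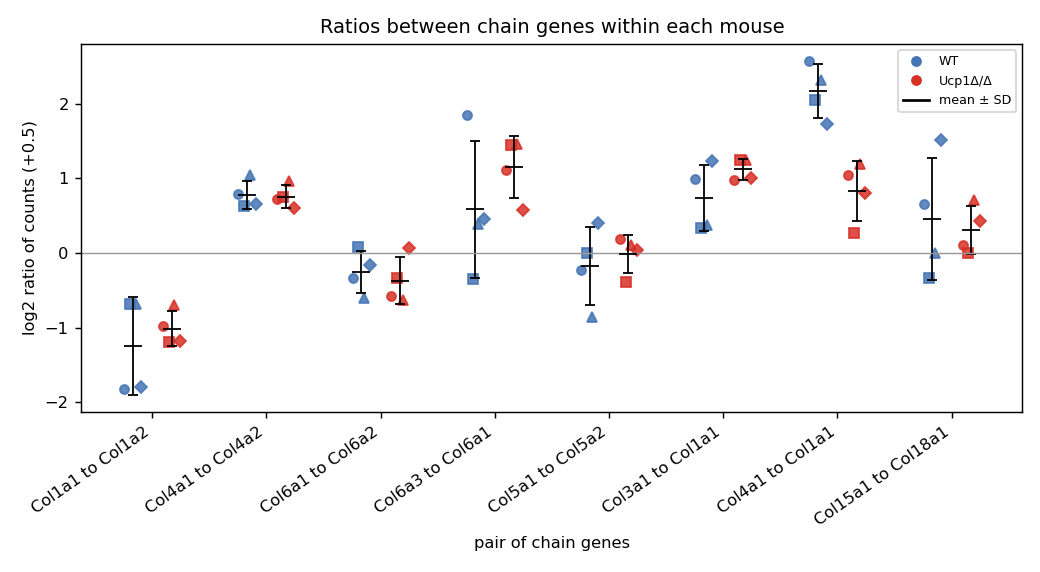
Log2 ratio of the counts of 8 pairs of collagen chains in each mouse, by genotype, with the mean and SD. Only Col4a1 to Col1a1 separates the genotypes, with WT mice at 1.73 to 2.58 and Ucp1Δ/Δ mice at 0.27 to 1.19.

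Other genes of the collagen pathway were taken from 4 lists. As with the chains, genes under 4.22 CPM by total counts in some WT mice could be tested only with the help of levels in Ucp1Δ/Δ mice. Each list is also given for the genes that reached this level in every WT mouse. The share to set beside each of the 4 lists is that over all genes tested, 13.3% higher and 7.63% lower. All 6 tested genes of the cleavage and crosslinking list were higher (of 13 on the list, median log2 fold change 2.19), and none was lower. Only 3 of them reached the minimum in every WT mouse, all 3 higher, while Bmp1, Loxl1 and Adamts2 did not. Pcolce, a glycoprotein that enhances the removal of the C-terminal propeptide, went from 9.96 ± 3.85 to 207 ± 40.4 CPM, a log2 fold change of 4.35 (SE 0.26, adjusted p = 1.37e-07). Lox, the lysyl oxidase that starts the crosslinks, rose by 1.88 on the log2 scale (SE 0.18, adjusted p = 4.21e-06), Pcolce2 by 2.24 (adjusted p = 1.56e-05) and Adamts2, which cleaves the N-terminal propeptide, by 2.37 (adjusted p = 2.65e-05). Among 11 tested genes of the 18 for folding and modification, 4 were higher, none was lower and the median was 0.42. Of the 8 that reached the minimum in every WT mouse, 3 were higher. P3h2, a prolyl hydroxylase acting on type IV collagen, rose by 2.81 (SE 0.45, adjusted p = 0.000351), but was under the minimum in all WT mice. Smaller changes were called for the collagen galactosyltransferase Colgalt1 (0.79, adjusted p = 0.00974), P4hb, a subunit of prolyl hydroxylase (0.70, adjusted p = 0.0255), and the lysyl hydroxylase Plod1 (0.52, adjusted p = 0.0356). The number called in this list fell to 2 without WT 1, WT 3, Ucp1Δ/Δ 1 or Ucp1Δ/Δ 2, and to 1 without the 4 mice highest in muscle markers.

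Of 18 genes for collagen breakdown and uptake, 10 were tested, 6 were higher and none was lower, with a median log2 fold change of 1.31. Of the 5 that reached the minimum in every WT mouse, 3 were higher, with a median of 1.13 for the 5. Mmp12, a metalloproteinase typical of macrophages, had 0, 1, 0 and 1 counts in WT and 90, 237, 46 and 95 counts in Ucp1Δ/Δ mice (adjusted p = 1.58e-06), so that it was tested through Ucp1Δ/Δ mice alone, as was Mmp11. The gelatinase Mmp2 rose by 2.40 on the log2 scale (adjusted p = 5.17e-05) and the stromal metalloproteinase Mmp11 by 2.25 (adjusted p = 0.00041). Timp2, an inhibitor of metalloproteinases, also rose, from 73.1 ± 29.8 to 341 ± 64.0 CPM (log2 fold change 2.22, adjusted p = 4.63e-05). Among collagen receptors, 5 of 7 tested genes (of 11) were higher, none was lower and the median was 1.76. Of the 4 that reached the minimum in every WT mouse, 2 were higher, with a median of 0.53 for the 4. Ddr2, a receptor tyrosine kinase for fibrillar collagen, was at 16.5 ± 3.90 CPM in WT and 55.6 ± 12.3 CPM in Ucp1Δ/Δ mice (log2 fold change 1.76, adjusted p = 4.14e-05). Its relative Ddr1 rose by 1.83 (adjusted p = 0.000351), the leukocyte receptor Lair1 by 3.23 (adjusted p = 0.000437) and Mrc1, which is also on the macrophage marker list, by 1.97 (adjusted p = 0.000484). None of these 3 reached the minimum in every WT mouse, and Lair1 reached it in none. This count fell to 3 without Ucp1Δ/Δ 1, without Ucp1Δ/Δ 2 or without the 4 mice highest in muscle markers.

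Fibroblast and macrophage markers moved with the collagens, and their part in the collagen results was not tested. Among all genes tested, 13.3% were higher and 7.63% lower. Of 10 fibroblast and stromal progenitor markers, all tested, 9 were higher (4 of the 4 that reached the minimum in every WT mouse) and their summed level was 315 to 412 CPM in WT and 693 to 1107 CPM in Ucp1Δ/Δ mice. Of 8 macrophage markers 7 were tested and 7 were higher (3 of the 3 that reached the minimum in every WT mouse), with sums of 76.8 to 102 CPM against 623 to 943 CPM. Endothelial markers summed to 200.4 to 263 CPM against 261 to 299 CPM, and 1 of 8 (Tie1) was higher. Mural markers summed to 209.7 to 308 CPM against 335 to 363 CPM, and again 1 of 8 (Acta2) was higher. In the endothelial and mural lists, the share called higher was thus near that of all genes tested. Brown adipocyte markers summed to 6849 to 15378 CPM against 5260 to 8655 CPM, with 4 of 8 (Cidea, Adipoq, Elovl3 and Plin1) lower. Of 6 Schwann cell markers 3 were tested and 1 was higher, with sums of 47.4 to 76.6 CPM against 81.4 to 133 CPM. None of the 5 tested skeletal muscle markers, of 6, was called. Of 8 markers of chondrocytes and bone only Sox9 was tested, and it was higher but under the minimum in 3 of 4 WT mice, while the defining markers Acan, Comp, Matn1, Matn3 and Sp7 were at 0 in all mice.

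Set against the fibroblast marker sum, the fibrillar chain sum was 0.528 to 1.05 times as large in WT and 1.03 to 1.66 times in Ucp1Δ/Δ mice, so that the ranges overlapped at WT 4. The beaded filament sum was 0.0817 to 0.120 times the fibroblast sum in WT and 0.122 to 0.204 times in Ucp1Δ/Δ mice. These ranges did not overlap but nearly met. Most of the fibroblast sum was 1 gene, Dcn (mean 248.9 of 369.4 CPM in WT and 599.6 of 923.3 CPM in Ucp1Δ/Δ mice). Fold changes on that list ran from 1.03 (Pi16) to 8.65 (Mfap5), so these ratios do not measure collagen per fibroblast. Basement membrane chains were at 0.570 to 0.737 times the fibroblast sum in WT and 0.448 to 0.622 times in Ucp1Δ/Δ mice, with overlap. Relative to the endothelial marker sum they were at 0.812 to 1.28 times in WT and 1.44 to 1.90 times in Ucp1Δ/Δ mice. The fibrillar sum was a smaller multiple of the macrophage marker sum in Ucp1Δ/Δ mice, 1.14 to 1.95 against 2.13 to 4.62 in WT.

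**Figure D5:**
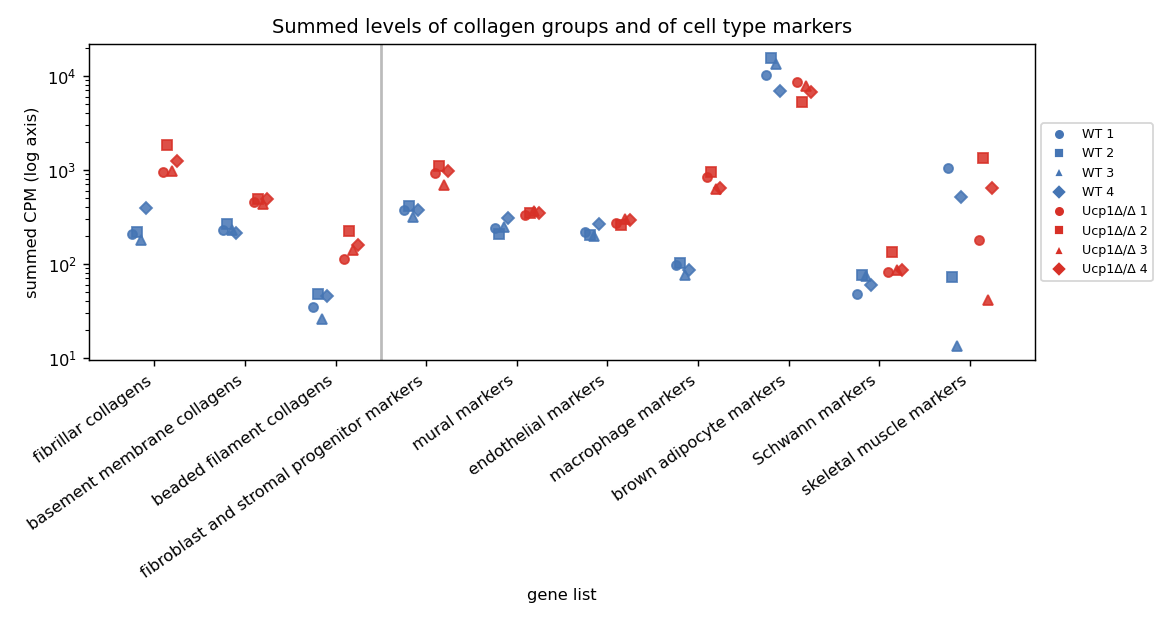
Summed level (CPM, log axis) of 3 collagen groups, left of the line, and of 7 lists of cell type markers in each mouse, with WT in blue, Ucp1Δ/Δ in red and 1 symbol per mouse number. Collagen groups and fibroblast, macrophage, mural and Schwann cell markers separate the genotypes, with macrophage markers at 76.8 to 102 CPM in WT and 623 to 943 CPM in Ucp1Δ/Δ mice, and skeletal muscle markers spread widely within both genotypes.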

How the data were processed

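BAT of 4 WT and 4 Ucp1Δ/Δ mice was profiled by single-end bulk RNA-seq with a digital mRNA-seq service. Per the methods of the study, the authors used bbduk for trimming, STAR for alignment to mm10 and HTseq-counts for counting per gene, while the submitters' processing notes list Trimmomatic, HISAT2 and DESeq2. The deposited counts are whole numbers, not normalized, with 1 column per mouse, and the deposited log2 values were not used. Strand setting and annotation release are not given in the sources used here. Samples were grouped by the genotype in their labels. Symbols (30934 of 31053 genes), positions and exon overlaps came from GENCODE for mm10.

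Genes were filtered with filterByExpr, scaled by TMM and tested on genotype with edgeR's quasi-likelihood test (R 4.3.3, edgeR 4.0.16) with Benjamini-Hochberg adjustment over 8930 genes at 0.05. The study itself used DESeq2, which was run here as an alternative (version 1.42.0), with limma 3.58.1. The procedure was tested on simulated data. CPM used TMM library sizes without a prior count, apart from the filter's minimum of 4.22 CPM, which used total counts. Named were every collagen chain gene, up to 4 called genes with the smallest adjusted p per pathway list, and Pnpla2. The members, the gene lists and the tests were chosen with earlier results of these data known. Other filters, scalings, a replicate block and leaving out each mouse were tried. Replicate columns differed beyond counting noise, and no sample was left out of the reported tests. Nothing states whether mice shared a litter, so p-values measure the spread between these samples. Floors cover counting error only.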

Additional observations from a re-analysis of the deposited data

Results flagged for a closer look

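In 3 of 50 groups of 4 mice examined, 1 mouse stood apart from the others by Dixon's criterion (its gap to the nearest mouse over the range of the group), where chance gives about 2.5. For Col5a1, Ucp1Δ/Δ 2 was at a log2 CPM of 5.12 and the other Ucp1Δ/Δ mice at 4.86 to 4.88, a gap of 0.936 of the range. For Col5a2, the same mouse was at 5.50 and the others at 4.70 to 4.82 (0.844 of the range). For Col12a1, Ucp1Δ/Δ 3 was at 4.29 and the others at 3.23 to 3.39 (0.855 of the range). Each of these mice was on the side away from WT.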

How the results depend on the processing

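The count of 15 higher chains was 14 to 15 when 1 mouse was left out, 12 of 12 tested when every mouse had to have at least 10 counts, 12 of 18 without the 4 mice highest in skeletal muscle markers (an alternative chosen after seeing the data) and 15 in the other alternatives, and no chain was lower in any. All genes called fell from 1872 of 8930 tested to 1195 of 6928 with at least 10 counts in every mouse. They fell to 1025 of 9295 (760 higher) without the muscle-high mice, and ranged from 1345 to 2155 with 1 mouse left out. With the replicate block the count was 1719, with 15 chains higher. Deviations of same-numbered mice from their genotype means correlated at -0.087, -0.196, 0.304 and 0.241. Differently numbered mice were not compared in this way, so these values do not settle whether the numbers pair mice. The block took the Col4a1 to Col1a1 ratio (-1.34) to an exact p of 0.125, the smallest it allows. Scaling by total counts moved the median log2 fold change of all genes by 0.14 and gave 1478 higher and 404 lower genes, against 1191 and 681. Folding genes called (4) ranged from 2 to 4 with 1 mouse left out and were 1 without the muscle-high mice. Cleavage genes (6) were 3 of 3 tested where no mouse had fewer than 10 counts. Breakdown genes (6) were 13 of 18 tested with 1 count in any mouse and 3 of 5 under the filter of 10. Receptor genes (5) were 2 of 4 under the same filter, 3 without the muscle-high mice and 3 to 5 with 1 mouse left out. With 1 mouse left out, the cleavage list ranged from 5 to 7 and the breakdown list from 6 to 9. Differences in ratio changed sign for Col4a1 to Col4a2 (-0.090 to 0.065, positive without WT 3 or, at 0.030, without Ucp1Δ/Δ 4), Col5a1 to Col5a2 (-0.068 to 0.35, negative without WT 3) and Col15a1 to Col18a1 (-0.41 to 0.21, positive without WT 4). The cause of these changes was not tested, beyond the fewer genes or mice that each alternative uses. Of 17 chain genes, 13 stayed on the same side of the threshold in every alternative that tested them (13 of 16 alternatives for Col14a1 and 15 for Col8a1), and Col6a1, Col12a1, Col15a1 and Col18a1 did not. The fold changes of Pnpla2 ranged from -2.68 to -2.48. Depth limits the 27 untested chains.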

Other observations

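Sox9, a transcription factor of chondrocytes that other cells also express, was chosen for mention after its values were seen. It was at 5.10, 0.448, 2.0 and 1.52 CPM in WT and 12.4, 27.1, 36.4 and 21.0 CPM in Ucp1Δ/Δ mice (log2 fold change 3.43, SE 0.46, edgeR adjusted p = 6.49e-05), and it passed the filter on low counts through Ucp1Δ/Δ mice. In the same libraries the cartilage collagens Col2a1 and Col9a1 had no count, and Col11a1, Col11a2, Col9a2, Col9a3 and Col10a1 had at most 3 counts in Ucp1Δ/Δ mice, while Col27a1 was 4.83-fold higher.

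Among WT mice, WT 4 had the highest summed fibrillar chains (396 CPM), with Col27a1 at 93.2 CPM and Col15a1 at 10.6 CPM. Its Pdgfra count was 0, and its fibroblast marker sum (375 CPM) was within the range of the other WT mice (315 to 412 CPM), as were its macrophage, Schwann cell and skeletal muscle marker sums. Its brown adipocyte marker sum (6849 CPM) was the lowest in WT and within the range of Ucp1Δ/Δ mice (5260 to 8655 CPM). WT 4 also had the highest endothelial (263 CPM) and mural (308 CPM) marker sums in WT.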
